A study of Mus musculus with 12 samples.

Results

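The genes described here are 7 genes of antigen presentation on MHC class II: the chain genes H2-Aa, H2-Ab1 and H2-Eb1, the invariant chain gene Cd74, the peptide loading genes H2-DMa and H2-DMb1, and the class II transactivator gene Ciita. They were taken by symbol from the 54232 genes of the count table, not by any measured value, and 7 of 7 passed the filter of at least 10 counts in at least 2 libraries that left 16281 genes to test. The samples were bone marrow-derived macrophages (BMDMs) of wild-type C57BL/6 mice, measured by RNA-sequencing after polyA enrichment. After 5 days of culture, BMDMs received no tumor-conditioned medium (TCM), TCM of NB9464, a MYCN-amplified mouse neuroblastoma line, or TCM of NBT3L, a line without that amplification, for 24 hours. Each of the 3 media was given without or with 500 nM R788 (fostamatinib, an inhibitor of the kinase Syk), so that 12 libraries, numbered 1 to 12 as in the labels, formed 6 groups of 2. Cells without either treatment are called NS, as in the labels (libraries 1 and 2), and cells with R788 alone were libraries 7 and 8. NB9464 TCM was given to libraries 3 and 4 and, with R788, to 9 and 10, and NBT3L TCM to libraries 5 and 6 and, with R788, to 11 and 12. The sources do not state the vehicle of R788 or the medium of cells without TCM, and they describe the making of TCM for NB9464 cells only, in DMEM without serum.

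MHC class II molecules are dimers of an alpha and a beta chain that carry peptides from endosomes to the cell surface, where CD4+ T cells read them. The chains assemble with the invariant chain (CD74), which fills the groove until proteases cut it down, and the DM dimer then exchanges the remaining fragment for antigen peptide. Macrophages make little class II at rest and much more after interferon gamma, which acts on Ciita; CIITA in turn is recruited by RFX, NF-Y and CREB factors to the X and Y boxes of class II promoters. Mice of the H-2b haplotype, such as C57BL/6, do not make the E alpha chain, so that the I-A dimer of H2-Aa and H2-Ab1 is their surface class II molecule and the H2-Eb1 chain has no partner.

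Libraries held 44977847 to 56449685 counts. Library 8, one of the 2 with R788 alone, had the highest total and 16149 genes with a count, against 17275 to 18343 in the others, and the values for R788 alone are given below also without it. Nothing states that the 2 libraries of a group came from separate mice or cultures, so p-values measure only the spread between these libraries, which may be technical. The counts of paired libraries differed by more than sampling noise in each group (chi-square of 7.7 to 37.9 per degree of freedom). The cells matched their label: 8 of 8 macrophage markers were detected, with a summed level of 1610000 to 2691000 normalized counts in a library. T or NK cell markers summed to at most 21.04, 0 of 6 of them passing the filter. Sums reached 71.1 for neuroblastoma, 455 for dendritic cell, 524 for B cell, 2869 for plasmacytoid dendritic cell, 3372 for fibroblast and 10340 for neutrophil markers. Of the 4 plasmacytoid dendritic cell markers, only Tcf4 passed the filter, and Siglech, Ly6d and Klk1 were at 0 in every group. Of the B cell markers, 3 of 6 passed the filter, and the B cell factor Pax5 was at 0 in 12 libraries.

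The promoters of 3 of the genes are shown because class II genes are known to be regulated through the X and Y boxes, which were searched for by short cores. RefSeq promoter entries (GRCm38.p6) were found for 4 of the 7 genes, and none is printed for H2-Ab1, Cd74 or Ciita. The 120 bases before the start are given 5′ to 3′ on the coding strand for a chain gene on each strand and for H2-DMb1, with the Y box core (CCAAT, or ATTGG on the other strand) and the X box core AGCAAC in capitals. H2-Aa, chr17:34287824-34287943, minus strand, has 1 Y box core 48 bases before the start. H2-Eb1, chr17:34305747-34305866, plus strand, has the X box core 92 bases and Y box cores 59 and 35 bases before the start. H2-DMb1, chr17:34153071-34153190, plus strand, has 1 Y box core 61 bases before the start. The X box core was thus found in 1 of the 4 genes. Only exact matches to AGCAAC were sought, so a box with a changed letter would be missed. A gene without a match may still hold an X box. H2-DMa has 2 entries, not printed, of which 1 held neither core and the other a Y box core upstream of the 120 bases nearest the start. Of 32851 RefSeq promoters, 33.8% held CCAAT, 12.2% held AGCAAC and 4.31% held both on either strand within 250 bases, so such short matches are common and are given as a description.
H2-Aa: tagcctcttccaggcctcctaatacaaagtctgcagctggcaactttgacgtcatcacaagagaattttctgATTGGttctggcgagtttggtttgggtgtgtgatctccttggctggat
H2-Eb1: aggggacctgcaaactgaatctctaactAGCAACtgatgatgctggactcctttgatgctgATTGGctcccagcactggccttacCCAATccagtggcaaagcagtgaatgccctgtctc
H2-DMb1: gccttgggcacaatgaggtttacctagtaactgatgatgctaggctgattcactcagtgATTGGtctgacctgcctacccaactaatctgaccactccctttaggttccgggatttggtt

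Per length of transcript, the genes spanned a wide range of levels in these BMDMs. Cd74 was highest, with a median of 135 TPM (counts per base of gene length, scaled to the same total in every library) over the 12 libraries and a range of 104 to 314. H2-Ab1 followed with a median of 56.5 TPM, then H2-DMb1 with 44.8, H2-DMa with 25.5, H2-Aa with 11.2 and H2-Eb1 with 10.1. The ranges of H2-Ab1 (30.2 to 87.7 TPM) and H2-DMb1 (33.0 to 61.7 TPM) overlapped, as did those of H2-Aa (8.32 to 30.2 TPM) and H2-Eb1 (7.14 to 42.1 TPM). Ciita had a median of 0.152 TPM and at most 1.13, and Ifng, the gene of the cytokine that induces it, had 0 counts in all 12 libraries.

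Levels below are counts normalized for depth by DESeq2 size factors, and differences are log2 fold changes with their standard error (SE) from 1 DESeq2 fit of 12 libraries, called at an adjusted p below 0.05. DESeq2 left tested genes of low mean count without an adjusted p, so that 11862 to 15965 of the 16281 genes had one, depending on the comparison, and genes without one count as not called. NB9464 TCM changed the level of 4 of the 7 genes against NS: H2-Aa, H2-Eb1 and Cd74 fell and H2-Ab1 rose, where 34.1% of all genes tested were called. The same 4 genes were called in the same directions with NBT3L TCM against NS, where 35.3% of all genes were called. The median log2 fold change of the 7 genes was -0.63 with NB9464 TCM and -0.37 with NBT3L TCM, beside 0.02 and 0 over all genes tested. The 2 comparisons share the NS libraries, so they are not independent of each other. In bulk RNA, fewer cells that express a gene and less RNA of it per cell cannot be told apart.

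H2-Aa (ENSMUSG00000036594, GRCm38 chromosome 17, 34282744 to 34287823, minus strand) encodes the I-A alpha chain. Its normalized counts were 578.5 and 619.2 in NS, 318.5 and 310.3 with NB9464 TCM, and 368.8 and 430.7 with NBT3L TCM. Both TCM groups lay below NS without overlap. H2-Aa fell by 0.93 on the log2 scale with NB9464 TCM (SE 0.184, DESeq2 adjusted p = 2.9e-06), to 0.525 of the NS level. With NBT3L TCM it fell by 0.58 (SE 0.184, DESeq2 adjusted p = 0.00565), a call that was lost without library 2 (adjusted p = 0.0824) or without library 5 (adjusted p = 0.122).

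H2-Ab1 (ENSMUSG00000073421, chromosome 17, 34257689 to 34269419, plus strand) encodes the I-A beta chain, the partner of H2-Aa. It ran the other way. Its normalized counts were 763.6 and 902.7 in NS, 1348 and 1715 with NB9464 TCM, and 1970 and 2158 with NBT3L TCM, so that each medium group lay above NS. The rise was 0.88 on the log2 scale with NB9464 TCM (SE 0.141, DESeq2 adjusted p = 3.6e-09), or 1.84-fold, and 1.31 with NBT3L TCM (SE 0.14, DESeq2 adjusted p = 1.67e-19), or 2.48-fold. Both calls held under each of the 11 alternatives tried, where the values ran from 0.69 to 1.04 with NB9464 TCM and from 1.19 to 1.43 with NBT3L TCM.

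H2-Eb1 (ENSMUSG00000060586, chromosome 17, 34305867 to 34316674, plus strand) encodes the E beta chain, which has no alpha partner in this strain. Its normalized counts were 489.3 and 515.8 in NS, 167.4 and 195.1 with NB9464 TCM, and 235.2 and 174.2 with NBT3L TCM. Of the genes called, H2-Eb1 had the largest fall: 1.47 on the log2 scale with NB9464 TCM (SE 0.306, DESeq2 adjusted p = 9.11e-06), to 0.361 of NS. With NBT3L TCM the log2 fold change was -1.3 (SE 0.306, DESeq2 adjusted p = 0.000113). The levels with the 2 media overlapped. As background to this gene, H2-Ea-ps, the remnant of its alpha partner, had 0 counts in all 12 libraries.

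Cd74 (ENSMUSG00000024610, chromosome 18, 60803848 to 60812652, plus strand), the invariant chain gene, fell with both media and further with NB9464 TCM. Normalized counts were 4720 and 4604 in NS, 2723 and 2899 with NB9464 TCM, and 3780 and 3642 with NBT3L TCM, and the 3 groups did not overlap. Its log2 fold change against NS was -0.73 with NB9464 TCM (SE 0.0905, DESeq2 adjusted p = 9.67e-15) and -0.33 with NBT3L TCM (SE 0.0904, DESeq2 adjusted p = 0.00114). Both falls were called under each of the 11 alternatives.

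**Figure D1:**
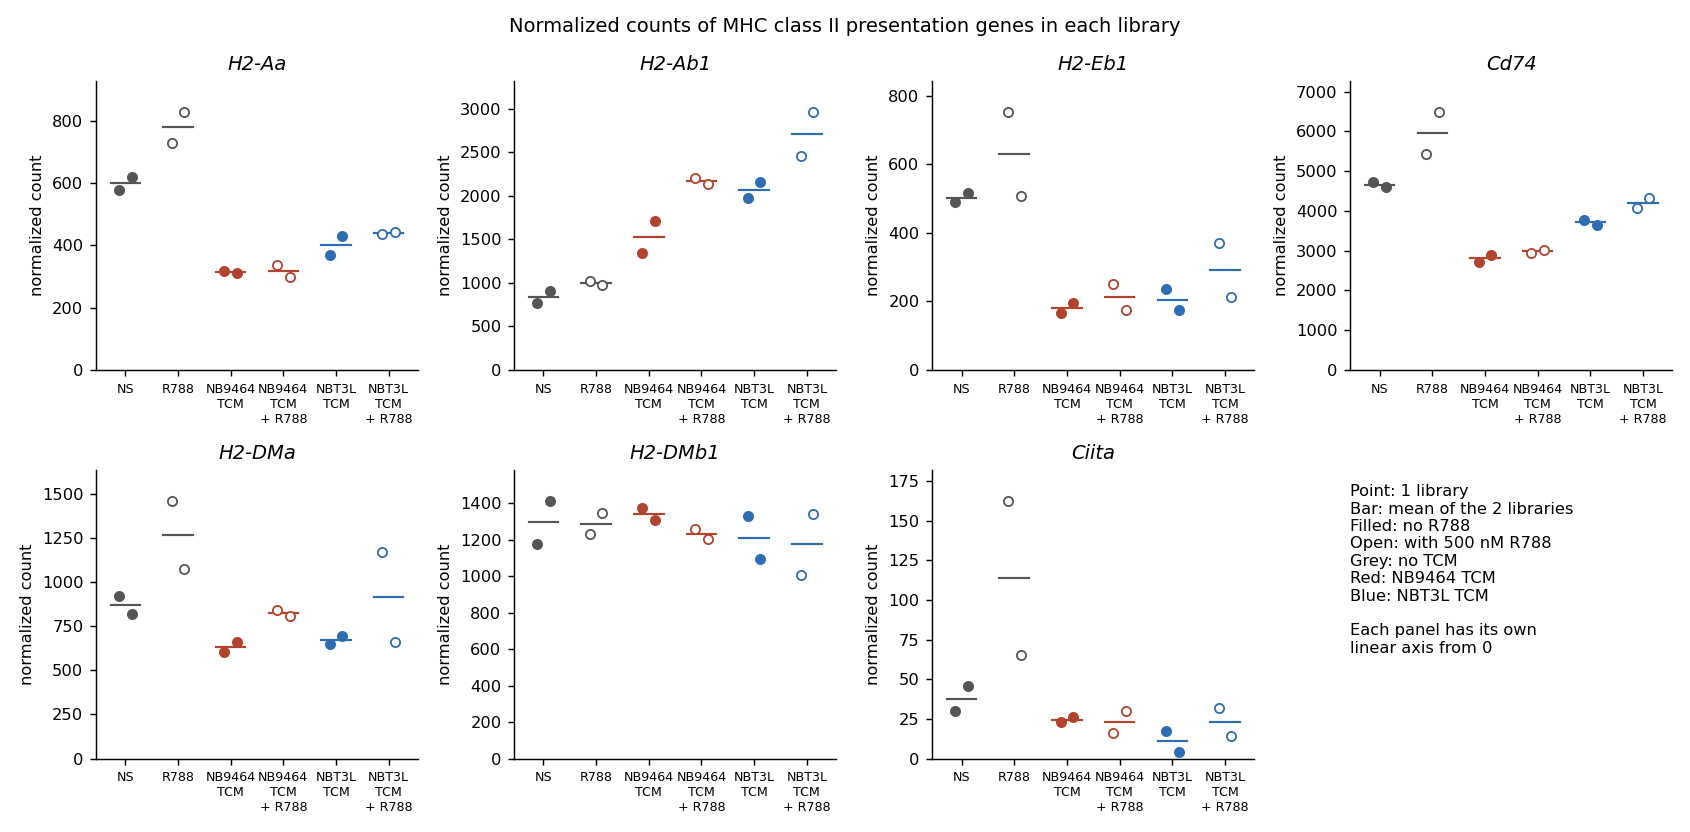
Normalized counts of the 7 class II presentation genes (vertical axes, linear from 0, 1 scale per panel) in the 12 libraries by group (horizontal axes), with bars at the mean of the 2 libraries. H2-Aa, H2-Eb1 and Cd74 lie lower in the TCM groups than in NS, H2-Ab1 lies higher, and H2-DMb1 stays between 1005 and 1413 in every library.

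The opposite course of the 2 I-A chains showed in each library as a ratio, a measure chosen after the values were seen and given without a test. Per base of length, H2-Ab1 ran at 1.36 to 1.67 times H2-Aa in the 4 libraries without TCM (1.511, 1.669, 1.595 and 1.355 in libraries 1, 2, 7 and 8). In the 8 libraries with TCM the ratio was 4.84 to 8.17, with a median of 6.39, and the 2 sets did not overlap. H2-Ab1 per H2-Eb1 likewise ran from 0.978 to 1.395 without TCM and from 4.81 to 10.1 with TCM. Cd74 per H2-Aa moved far less, from 9.88 to 10.8 without TCM to 11.2 to 13.6 with TCM. Cd74 per H2-Ab1 was 5.92 to 7.69 without TCM and 1.55 to 2.35 with TCM. Over the 12 libraries, Pearson's r of the log2 levels was 0.96 between H2-Aa and Cd74, 0.88 between H2-Aa and H2-Eb1, and -0.66 between H2-Aa and H2-Ab1, a description over libraries that fall into TCM and no-TCM sets and share their scaling.

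**Figure D2:**
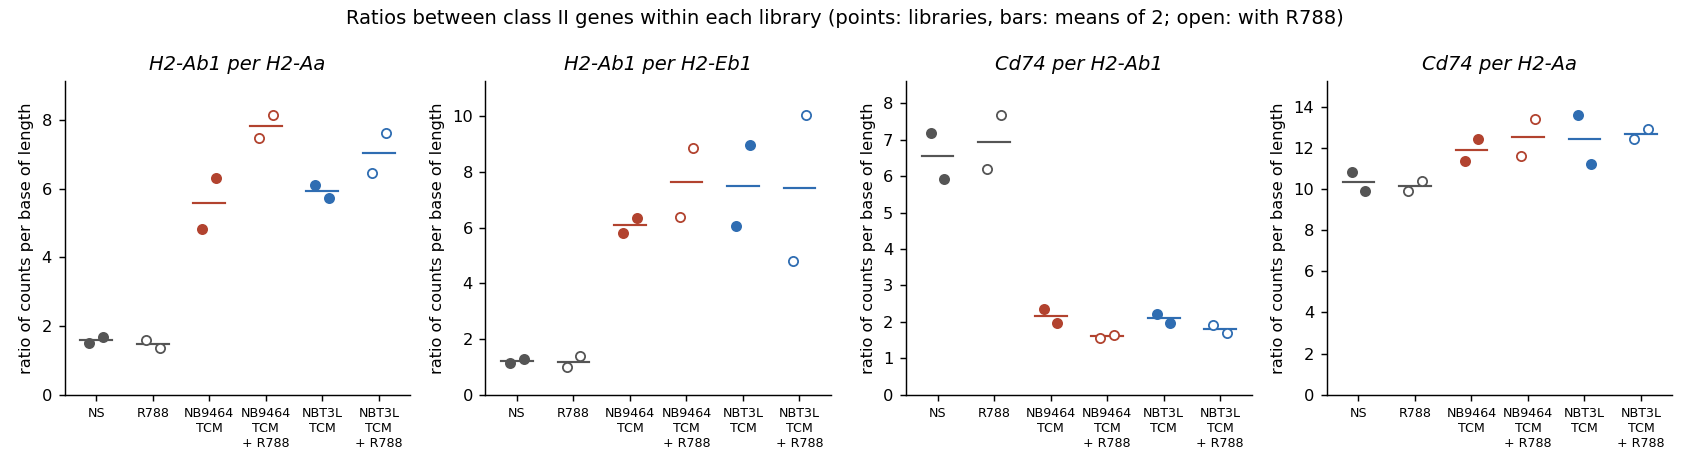
Ratios of counts per base of length (vertical axes, linear from 0) between class II genes within each library, by group (horizontal axes); points are libraries, bars are means of 2, and open points had R788. H2-Ab1 per H2-Aa is 1.36 to 1.67 in the 4 libraries without TCM and 4.84 to 8.17 in the 8 with TCM, while Cd74 per H2-Aa stays between 9.88 and 13.6.

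H2-DMa (ENSMUSG00000037649, chromosome 17, 34119541 to 34139101, plus strand), the alpha chain of the peptide exchange factor DM, was not called with either medium. Its normalized counts were 922.3 and 817.3 in NS, 604.5 and 662.3 with NB9464 TCM, and 651 and 694.7 with NBT3L TCM. The TCM libraries lay below NS without overlap, and the log2 fold changes were -0.46 (95% interval -0.89 to -0.02, DESeq2 adjusted p = 0.0988) and -0.37 (95% interval -0.81 to 0.06, DESeq2 adjusted p = 0.201). The former was called when the 4 libraries compared were fitted alone (adjusted p = 0.0211). In the GENCODE annotation, 360 bases of its exons lie opposite Brd2, a gene at 11760 to 14470 normalized counts, and the sources do not say whether counting used strand. The gene length in the count table, 1641 bases, is shorter than the 3448 exonic bases of that annotation, so whether the shared bases were counted is unknown.

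H2-DMb1 (ENSMUSG00000079547, chromosome 17, 34153072 to 34160230, plus strand), the beta chain of DM, was not called in any comparison. Its normalized counts were 1175 and 1413 in NS, 1375 and 1305 with NB9464 TCM, and 1329 and 1091 with NBT3L TCM, and over the 12 libraries they ran from 1005 to 1413. All groups overlapped in range with NS. The log2 fold change was 0.05 with NB9464 TCM (95% interval -0.26 to 0.36) and -0.10 with NBT3L TCM (95% interval -0.41 to 0.21). H2-DMb2, its close paralog, had 45.1 to 150.6 normalized counts, and how reads common to both were assigned is not stated.

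Ciita (ENSMUSG00000022504, chromosome 16, 10480059 to 10528418, plus strand), the master regulator of the class II genes, was counted so rarely that its differences had wide intervals. It had 4 to 179 raw counts in a library. Normalized counts were 30.1 and 45.5 in NS, 22.96 and 26.01 with NB9464 TCM, and 17.3 and 4.33 with NBT3L TCM. Both TCM groups lay below NS, and neither difference was called: the log2 fold change was -0.63 with NB9464 TCM (95% interval -2.13 to 0.88, DESeq2 adjusted p = 0.608) and -1.82 with NBT3L TCM (95% interval -3.42 to -0.22, DESeq2 adjusted p = 0.0674). Without library 5, which left 1 NBT3L TCM library with 4 counts, the latter was -3.13 and was called (adjusted p = 0.0215). In the annotation, 329 bases of its exons lie opposite Dexi, which had 339.9 to 691.4 normalized counts.

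Between the 2 media without R788, Cd74 and H2-Ab1 were called, both lower with NB9464 TCM than with NBT3L TCM, where 9.4% of all genes were called. The median log2 difference of the 7 genes was -0.17, beside -0.0014 over all genes tested. For Cd74 the log2 difference was -0.40 (SE 0.0912, DESeq2 adjusted p = 0.000231). For H2-Ab1 it was -0.43 (SE 0.138, DESeq2 adjusted p = 0.0193). The H2-Ab1 call did not hold by edgeR (quasi-likelihood adjusted p = 0.0678) or without library 3, 5 or 6 (adjusted p = 0.406, 0.0639 and 0.277). H2-Aa differed by -0.35 (95% interval -0.72 to 0.02) and was not called, nor were the other 4 genes.

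R788 was compared with no R788 within each medium and as an average over the 3 media, the latter being the better measured since 6 libraries stand on each side. Averaged over media, R788 raised 3 of the 7 genes, H2-Ab1, Cd74 and H2-DMa, and lowered 0, where 29.6% of all genes were called and 13.4% were called higher. The median log2 fold change of the 7 genes was 0.35, beside -0.01 over all genes tested. All 3 calls held under each of 18 alternatives, edgeR and the omission of any single library included.

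The beta chain gene H2-Ab1 had 1017 and 979.6 normalized counts with R788 alone, 2204 and 2139 with NB9464 TCM and R788, and 2460 and 2962 with NBT3L TCM and R788. In each medium both libraries with R788 lay above both without. The average log2 fold change was 0.39 (SE 0.0803, DESeq2 adjusted p = 1.27e-05), or 1.31-fold. Within NB9464 TCM it was 0.50 (SE 0.138, DESeq2 adjusted p = 0.0027), within NBT3L TCM 0.39 (SE 0.138, DESeq2 adjusted p = 0.0311), and without TCM 0.26 (95% interval -0.02 to 0.54), not called (0.29 without library 8). H2-Ab1 was the 1 gene of the 7 called within NB9464 TCM, where 14.5% of all genes were called, and within NBT3L TCM, where 12.6% were. The NB9464 TCM call was lost without library 3 (0.34, adjusted p = 0.159) or 9 (0.48, adjusted p = 0.0551). The NBT3L TCM call was lost by edgeR (adjusted p = 0.0597) and without library 5, 6 or 12 (adjusted p = 0.264, 0.0815 and 0.443).

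In order of its mean level, H2-Ab1 ran from NS (833 ± 98.4, SD, n = 2) over R788 alone (998 ± 26.5) and NB9464 TCM (1531 ± 260) to NBT3L TCM (2064 ± 132), NB9464 TCM with R788 (2172 ± 45.9) and NBT3L TCM with R788 (2711 ± 355). The ranges of NBT3L TCM and of NB9464 TCM with R788 overlapped, and NS and R788 alone were not called as different. The highest group was that with both NBT3L TCM and R788.

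Cd74 had 5428 and 6486 normalized counts with R788 alone, 2951 and 3021 with NB9464 TCM and R788, and 4073 and 4319 with NBT3L TCM and R788. Here too both R788 libraries lay above both others in each medium. Cd74 rose by 0.21 on the log2 scale on average (SE 0.0523, DESeq2 adjusted p = 0.000494), or 1.15-fold. Without TCM the rise was 0.35 (SE 0.0894, DESeq2 adjusted p = 0.000525), a comparison in which 2 of the 7 genes (Cd74 and H2-DMa, both higher) and 26.6% of all genes were called, and in which the median of the 7 genes was 0.35, beside 0 over all genes tested. It was 0.22 without library 8 (adjusted p = 0.0396) and 0.48 without library 7 (adjusted p = 2.78e-07). Within NB9464 TCM the log2 fold change was 0.09 (95% interval -0.09 to 0.27) and within NBT3L TCM 0.18 (95% interval 0.00 to 0.36), neither called.

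H2-DMa had 1460 and 1076 normalized counts with R788 alone, 839.5 and 807.5 with NB9464 TCM and R788, and 1171 and 660.2 with NBT3L TCM and R788. Library 12 lay inside the range of the NBT3L TCM libraries without R788, and the others lay above their counterparts. The average log2 fold change was 0.46 (SE 0.128, DESeq2 adjusted p = 0.00193), or 1.37-fold, and 0.52 without library 8 and 0.38 without library 7 (adjusted p = 0.000233 and 0.0132). Without TCM it was 0.54 (SE 0.219, DESeq2 adjusted p = 0.0459) and 0.75 without library 8 (adjusted p = 0.0111). That call was lost when p was adjusted over all genes tested (adjusted p = 0.0505), by edgeR (adjusted p = 0.0686) and without library 1, 2 or 7 (adjusted p = 0.0752, 0.248 and 0.379). Within NBT3L TCM, H2-DMa was not called (0.44, DESeq2 adjusted p = 0.183), but was without library 12 (0.80, adjusted p = 0.00348).

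The other 4 genes were not called with R788 on average. H2-Aa had 729.8 and 827.9 normalized counts with R788 alone, 337.2 and 299.9 with NB9464 TCM and R788, and 435.8 and 444.1 with NBT3L TCM and R788. Its average log2 fold change was 0.18 (95% interval -0.03 to 0.39, DESeq2 adjusted p = 0.215), an interval that covers the average rise of Cd74. Without TCM it was 0.38 (95% interval 0.03 to 0.73, DESeq2 adjusted p = 0.0978), and 0.28 without library 8 (adjusted p = 0.379). The 2 I-A chains thus differed in their R788 calls, but the difference between them was not tested.

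H2-Eb1 had 752.5 and 507.8 normalized counts with R788 alone, 249.7 and 174.4 with NB9464 TCM and R788, and 370.1 and 213 with NBT3L TCM and R788. The 2 libraries of each R788 group lay far apart. On average over media the difference was 0.35 on the log2 scale (SE 0.177) and not called (DESeq2 adjusted p = 0.122), and it was called without library 8 (0.44, adjusted p = 0.0452) or 12 (0.47, adjusted p = 0.0302). Without TCM it was 0.33 (95% interval -0.26 to 0.91), and it was 0.58 without library 8 and 0.02 without library 7, not called in either case.

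Ciita had 162.7 and 65.5 normalized counts with R788 alone, above 30.1 and 45.5 in NS. With R788 it had 15.91 and 29.99 in NB9464 TCM and 31.8 and 14.1 in NBT3L TCM. The log2 fold change without TCM was 1.59 (95% interval 0.13 to 3.06, DESeq2 adjusted p = 0.0966), and it was called when the 4 libraries compared were fitted alone (1.60, adjusted p = 0.0476). It was 0.79 without library 7 (adjusted p = 0.592) and 2.11 without library 8 (adjusted p = 0.0538), so the size of this difference rests on library 7. Averaged over media it was 0.86 (95% interval -0.03 to 1.75, DESeq2 adjusted p = 0.147). H2-DMb1 had 1231 and 1343 normalized counts with R788 alone, 1257 and 1204 with NB9464 TCM and R788, and 1005 and 1342 with NBT3L TCM and R788, an average log2 fold change of -0.06 (95% interval -0.24 to 0.12).

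Interaction terms asked whether R788 acted differently from medium to medium. By DESeq2, 0 of the 7 genes were called for a difference of the R788 effect between NB9464 TCM and no TCM, where 12.5% of all genes were called, between NBT3L TCM and no TCM, where 10.1% were, or between the 2 media, where 0.706% were. edgeR also called 0 in each. At an unadjusted p below 0.05 the DESeq2 counts were 1, 0 and 0. The 1 gene was Cd74, whose R788 effect was smaller with NB9464 TCM (log2 difference -0.27, 95% interval -0.52 to -0.02, DESeq2 adjusted p = 0.15), and both of its interactions with TCM were called when library 7 was left out.

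**Figure D3:**
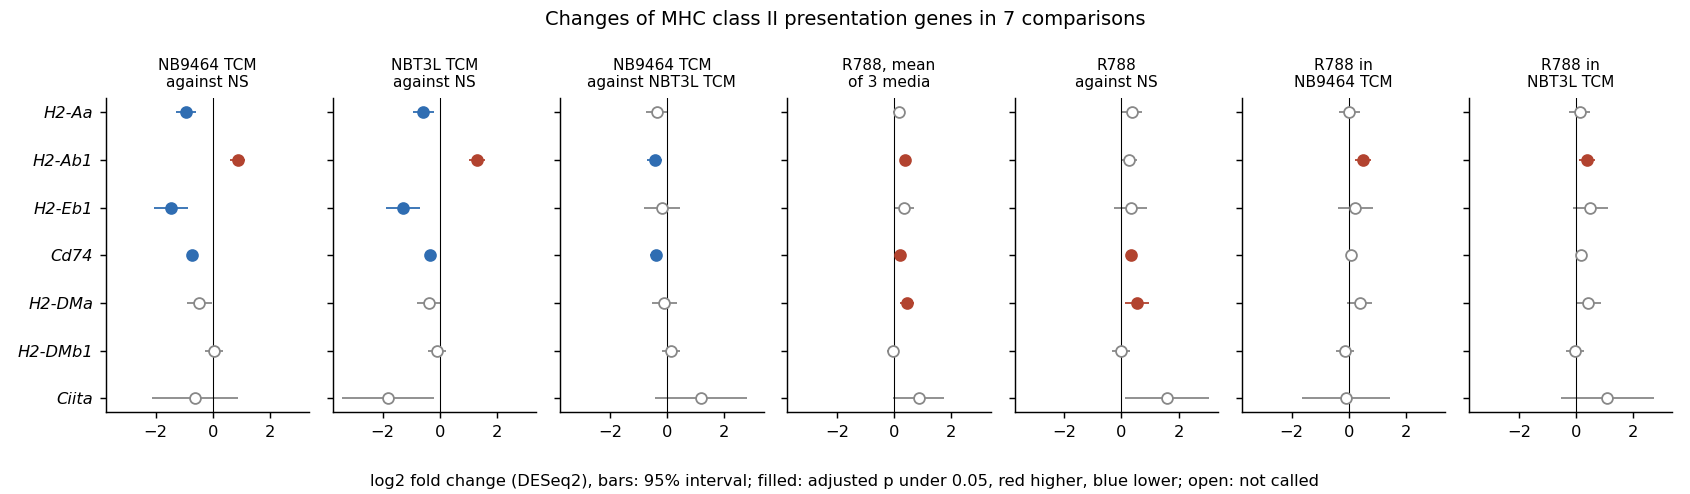
DESeq2 log2 fold changes of the 7 class II presentation genes (horizontal axes) in 7 comparisons, with 95% intervals; filled points were called at an adjusted p below 0.05 (red higher, blue lower) and open points were not. With either TCM H2-Ab1 is the 1 gene called higher and H2-Aa, H2-Eb1 and Cd74 are called lower, while no gene is called lower with R788.

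Of 5 other class II genes, 4 were tested and 0 were called with either medium. Over all genes tested, 34.1% were called with NB9464 TCM and 35.3% with NBT3L TCM. H2-DMb2, the second DM beta gene, rose with R788 on average (0.82, DESeq2 adjusted p = 0.00982), where 150.6 and 111.5 normalized counts in NBT3L TCM with R788 compare with 50.7 and 62.8 without. H2-Oa and H2-Ob, the subunits of the DO dimer that holds DM in check, were at 18.8 to 72.2 and 23.7 to 102.2 normalized counts and were not called in any of these comparisons. H2-Eb2 had at most 19.1 normalized counts.

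Among 9 genes of antigen processing, 2 were called higher and 5 lower with NB9464 TCM, and 3 higher and 5 lower with NBT3L TCM. Over all genes tested, 17.2% were called higher and 16.9% lower with NB9464 TCM, and 18% and 17.3% with NBT3L TCM. Ctss, the protease that makes the last cut of the invariant chain in antigen-presenting cells, fell from 140400 and 148700 normalized counts in NS to 69950 and 73480 with NB9464 TCM (log2 fold change -1.01) and to 85840 and 84610 with NBT3L TCM (-0.76). Lgmn, an endosomal asparaginyl protease, fell by 1.03 and 0.77 on the log2 scale. Ctsl, another cysteine protease of endosomes, fell by 1.05 and 0.81. Ctsz, a carboxypeptidase of the same family, ran the other way, rising by 0.89 and 1.23. With R788 on average, Ctsl fell by 0.60, and Lgmn rose by 0.12, having fallen by 0.17 without TCM, a call lost without library 2 (adjusted p = 0.0516) and when the 4 libraries compared were fitted alone (adjusted p = 0.0904).

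Class II turnover was represented by 3 genes. March1, the ubiquitin ligase that sends class II molecules to degradation, had 1120 and 1152 normalized counts in NS, 3435 and 3261 with NB9464 TCM, and 4364 and 4886 with NBT3L TCM. It rose by 1.56 and 2.03 on the log2 scale, and by 0.46 with R788 on average. Cd83, whose protein opposes MARCH1, had 494.9 and 553.7 normalized counts in NS against 84.2 and 69.7 with NB9464 TCM and 165.8 and 172.1 with NBT3L TCM, and fell by 2.77 and 1.63. March8, a related ligase, was not called with either medium. Thus the ligase gene and its opponent moved in opposite directions with both media.

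Of 7 genes of the factors that bind class II promoters, 3 fell with each medium and 0 rose: Nfya, Nfyb and Creb1. Of all genes tested, 16.9% were called lower with NB9464 TCM and 17.3% with NBT3L TCM. Creb1, which binds part of the X box, fell by 0.41 with NB9464 TCM and by 0.60 with NBT3L TCM. With R788 on average, 2 of the 7 rose and 0 fell, where 13.4% of all genes tested were called higher. They were Creb1, by 0.29, and Rfx5, by 0.38 (SE 0.148, DESeq2 adjusted p = 0.0364). The Creb1 call with NB9464 TCM was lost without library 1 (adjusted p = 0.0611) or 4 (adjusted p = 0.0514). Of 10 tested genes upstream of Ciita, 5 were higher and 3 lower with NB9464 TCM and 6 higher and 2 lower with NBT3L TCM. In either direction, 34.1% of all genes tested were called with NB9464 TCM and 35.3% with NBT3L TCM. Socs1, the feedback inhibitor of interferon gamma signaling, rose by 2.17 and 3.41, and Jak2, a kinase of the same receptor, by 1.39 and 1.87. Ifngr1, a chain of that receptor, fell by 0.82 and 0.89.

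In 9 genes of class I presentation, R788 on average raised 1 and lowered 6, with a median log2 fold change of -0.36. Of the 7 class II genes, 3 were higher and 0 lower, with a median of 0.35. Of all genes tested, 13.4% were called higher and 16.2% lower. Tap1, a subunit of the peptide transporter, fell by 1.01 and Nlrc5, the class I transactivator and counterpart of Ciita, by 0.78. H2-D1, a class I heavy chain gene, was the 1 gene that rose with R788, by 0.09. With TCM against NS, 0 of the 9 class I genes were called higher. NB9464 TCM lowered 7 (median log2 fold change -0.39) and NBT3L TCM 5 (median -0.19), where 16.9% and 17.3% of all genes tested were called lower. The difference between the 2 families was not tested.

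**Figure D4:**
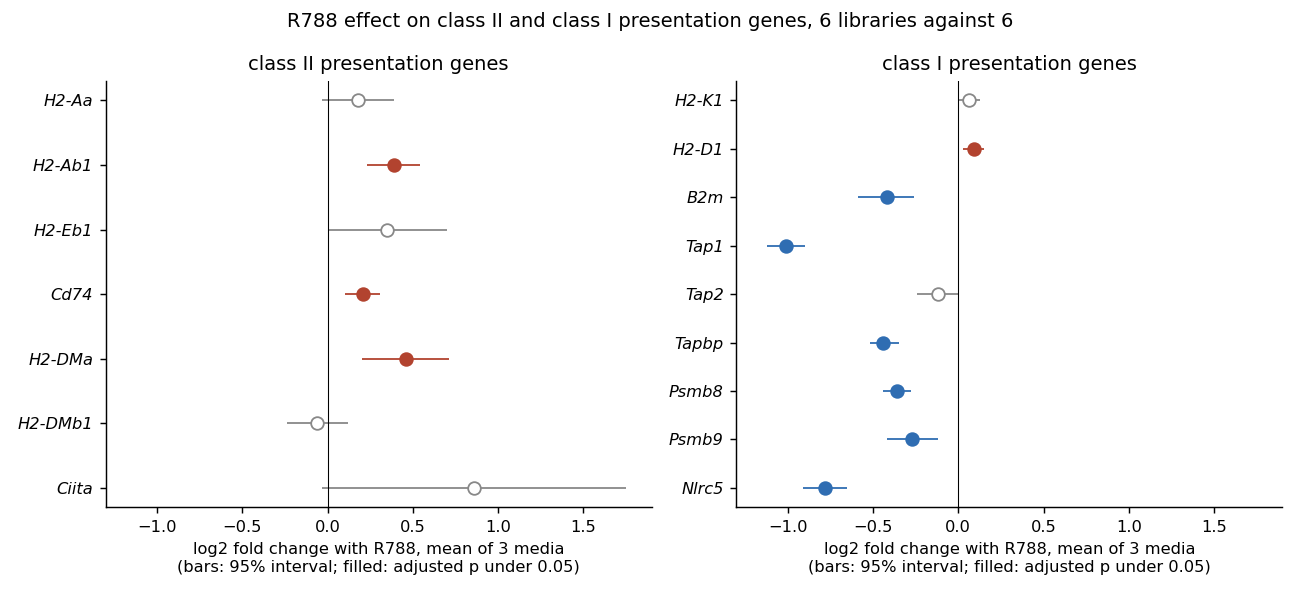
DESeq2 log2 fold change with R788 averaged over 3 media (horizontal axes, 6 libraries against 6) of the 7 class II and 9 class I presentation genes, with 95% intervals; filled points were called at an adjusted p below 0.05 (red higher, blue lower). In class II, 3 genes are called higher and 0 lower, and in class I, 1 is called higher and 6 lower.

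The genes closest in pattern to the mean z-score of H2-Aa, H2-Ab1, H2-Eb1 and Cd74, among 10709 genes compared over 12 libraries, were Clta (Pearson's r = 0.975), Man1a (0.962), Gm13212 (0.958), Myo1f (0.954) and Gnai2 (0.952). Within the 8 TCM libraries their r ran from 0.90 to 0.97. The mean joins genes of opposite course: over the 12 libraries, r of H2-Ab1 was -0.66 with H2-Aa, -0.7 with H2-Eb1 and -0.52 with Cd74. Their changes thus partly cancel in the mean, which need not match any single gene of them. Closest to Ciita were Als2cl (0.918), Sap30l (0.917), Dffb (0.916), Paox (0.904) and Pigo (0.902), with r from 0.71 to 0.81 within the TCM libraries. Ciita itself had only 4 to 179 raw counts in a library. These likenesses are descriptions over libraries that share their treatment sets.

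Markers of other cell types also moved with the groups. The sum of 8 dendritic cell markers was 440 to 455 normalized counts in NS, 265 to 332 with either TCM alone, 226 to 235 with R788 alone, and 187 to 225 with TCM and R788, and 6 of the 8 passed the filter. Of these, Itgax was called lower with NB9464 TCM (-1.10), NBT3L TCM (-1.06) and R788 on average (-0.79), and Xcr1 higher with both media. The sum of 6 B cell markers was 107 to 260 normalized counts in the groups other than those with both TCM and R788, which had 414 to 524, and 3 of the 6 passed the filter. Nearly all of it was Cd79b, at 404 to 522.2 in those 4 libraries, while Pax5 was at 0. Tcf4, the 1 plasmacytoid dendritic cell marker tested, was called lower with NB9464 TCM (-0.74) and NBT3L TCM (-0.7) and not called with R788 on average. The sum of 6 neutrophil markers ran from 2551 to 4329 normalized counts without TCM and from 6796 to 10340 with TCM, and S100a8 carried that rise. It was called higher with both media (2.66 on the log2 scale with NBT3L TCM). Mpo and Elane fell with both media, with SEs of 1.4 to 1.95, and S100a9 fell with NBT3L TCM. Of 5 tested, 1 was higher and 2 lower with NB9464 TCM, and 1 higher and 3 lower with NBT3L TCM. Of all genes tested, 17.2% were called higher and 16.9% lower with NB9464 TCM, and 18% and 17.3% with NBT3L TCM. Summed neuroblastoma markers ran from 0 to 1.82 without TCM and from 23.9 to 71.1 with TCM, with Th at 0 throughout, and fibroblast markers from 1191 to 2010 without R788 and from 1945 to 3372 with it. With R788 on average, the collagen genes Col1a1, Col1a2 and Col3a1 were called higher (0.86, 0.83 and 0.72). Dcn (-1.25) and Pdgfra (0.89) were not called. The part of cells of these types in the class II levels was not tested.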

How the data were processed

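RNA of 12 BMDM libraries was sequenced after polyA enrichment. The authors deposited raw counts per gene with gene lengths. The submitters' processing notes name mm10, STAR 2.6.1d, Salmon 1.4.0, SAMtools 1.9, Picard 2.26 and MultiQC 1.11. The strand setting, the handling of reads that map to several genes and the annotation release are not given in the sources used here. The labels state paired reads and 2 libraries per group, and the methods single reads in triplicate. Of counts up to 40, 65.2% to 67.9% were even, so both mates of a pair may have been counted. Symbols and positions came from GENCODE M21 (GRCm38, the same assembly as mm10), which named 54165 of 54232 genes. Merged exon lengths equaled the deposited lengths for 97.3% of shared genes.

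The 16281 genes that reached 10 counts in 2 or more libraries entered DESeq2 1.42.0 (R 4.3.3) in 1 fit of 6 group means over 12 libraries: median-of-ratios size factors, unshrunken fold changes, two-sided Wald tests, Benjamini-Hochberg adjustment with the independent filtering on mean count that DESeq2 applies by default. The plan was adjustment over all genes tested, which was therefore run as an alternative, added after seeing the data. Alternatives were edgeR 4.0.16 (quasi-likelihood, TMM), TMM scaling, other count filters, counts divided by 2, a fit of the compared libraries alone, and the omission of each library, where the lone library left in a group was assumed to vary like the other groups. The scripts were tested on simulated counts. TPM used the deposited lengths. The 7 genes, the lists and the tests were chosen with earlier results of these data known, so counts over a list are descriptions. List genes were named where called in at least 3 of the first 6 comparisons, at most 4 per list by the size of the largest log2 fold change, with every gene of the list of other class II genes. Nfya, Nfyb, Rfx5, H2-D1, March8, Ctsd, Cst3, Ifngr2, Jak1, B2m, Tapbp and marker genes were named after their values were seen. Some list genes are not reported here. Likeness of pattern used log2(normalized count + 1) and genes with a mean of at least 100.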

Additional observations from a re-analysis of the deposited data

Results flagged for a closer look

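The 7 class II presentation genes showed no called dependence of the R788 effect on the medium. By the DESeq2 interaction term between R788 and a TCM, 12 genes of the 6 related lists did with at least 1 TCM. Those lists held 4 tested genes of other class II, 9 of processing, 3 of turnover, 7 of promoter factors, 10 upstream of Ciita and 9 of class I. Of all genes tested, 12.5% were called for the interaction with NB9464 TCM and 10.1% with NBT3L TCM. The 12 genes pool both interactions, and the share of all genes called in either was not computed. With NB9464 TCM, the interaction was positive for 3 processing genes, 3 upstream of Ciita and 3 of class I, and negative for 1 processing gene. With NBT3L TCM, it was positive for 3 processing genes and 1 of class I. It was negative there for 1 gene each of processing, turnover and upstream of Ciita. Of the 12 list genes, 6 were named by the rule and are given here, and the other 6 were Ctsd, Cst3, Ifngr2, Jak1, B2m and Tapbp. The values are differences of log2 fold changes, R788 with TCM minus R788 without. For Lgmn the interaction was 0.41 with NB9464 TCM (SE 0.0696, DESeq2 adjusted p = 2.37e-07) and 0.48 with NBT3L TCM (SE 0.0695, DESeq2 adjusted p = 5.49e-10), the R788 effect being negative without TCM and positive with either. For Ctsl it was 0.39 (SE 0.0585, DESeq2 adjusted p = 1.16e-09) and 0.24 (SE 0.0585, DESeq2 adjusted p = 0.000706), the fall with R788 being smaller in both media. For Psmb8, an immunoproteasome subunit of class I presentation, it was 0.50 (SE 0.102, DESeq2 adjusted p = 3.23e-05) and 0.48 (SE 0.102, DESeq2 adjusted p = 6.57e-05). Ifngr1 had an interaction of 0.36 with NB9464 TCM (SE 0.104, DESeq2 adjusted p = 0.00646), which was lost without library 4 (adjusted p = 0.0502). Socs1 had 1.09 with NB9464 TCM (SE 0.243, DESeq2 adjusted p = 0.000157). Cd83 had -0.99 with NBT3L TCM (SE 0.343, DESeq2 adjusted p = 0.0327), a call lost by edgeR (adjusted p = 0.0511) and without library 1, 2, 5, 6, 7, 8, 11 or 12 (adjusted p = 0.0515 to 0.188).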

How the results depend on the processing

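No paired analysis was possible because the groups share no replicate numbers. Among differences called for the 7 genes, 191 of 208 alternative results kept the direction and the call, and 17 kept the direction and lost the call. The number of the 7 genes called by edgeR fell to 1 for NB9464 TCM against NBT3L TCM, to 1 for R788 against NS, and to 0 for R788 within NBT3L TCM. With p adjusted over all genes tested, an alternative added after seeing the data, it was 1 for R788 against NS and otherwise as in the report. Leaving out 1 library at a time, the counts ran from 1 to 2 for NB9464 TCM against NBT3L TCM, from 1 to 2 for R788 against NS, from 0 to 1 for R788 within NB9464 TCM, from 0 to 1 within NBT3L TCM, and from 0 to 1 for each interaction of R788 with a TCM. The libraries behind each lost call of a gene are given in the report, and the cause was not tested.

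Of 373 alternative results for differences that were not called, 352 kept their direction and stayed uncalled, 7 became called and 14 turned their direction. Those that turned did so with 1 library left out, over these log2 ranges. For R788 within NB9464 TCM they were -0.62 to 0.29 in Ciita, -0.07 to 0.10 in H2-Aa and -0.06 to 0.46 in H2-Eb1. Within NBT3L TCM R788 gave -0.03 to 0.80 in H2-DMa and -0.27 to 0.15 in H2-DMb1. H2-DMb1 ranged from -0.08 to 0.19 for NB9464 TCM against NS, from -0.25 to 0.04 for NBT3L TCM against NS, from -0.14 to 0.13 for R788 against NS (0.00 with a mean of at least 50 counts required), and from -0.13 to 0.01 for R788 averaged over media. H2-Eb1 ranged from -0.38 to 0.05 for NB9464 TCM against NBT3L TCM. Depth limits Ciita most, with 4 to 179 counts in a library.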
